A study of Homo sapiens with 6 samples.

Results

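The 10 genes described here had lower read counts after depletion of BMI1 in AF22 cells, an established line of human neural stem cells: THOP1, EBNA1BP2, DCP2, B3GALNT1, DCUN1D1, PDCD4, TRIM24, MTR, NAT8L and TUSC2. They are 10 of the 26485 gene symbols in the count tables and 10 of the 12937 genes with enough reads to be tested. The genes were selected on their difference between knockdown and control in these same 6 libraries, so their lower level is a description and carries no test here. The knockdown group (BMI1/COMMD3-BMI1_KD, 3 libraries) has BMI1 and the read-through transcript COMMD3-BMI1 as its stated targets. The control group (shControl, 3 libraries, genotype WT) carries a control for short hairpin RNA. The sources used here do not give the hairpin sequences, their vector, the duration of knockdown or whether cells were cloned. Total RNA was sequenced from both groups, and the libraries of each group are numbered 1 to 3 without a statement that they came from separate cultures, so the spread between them may be technical.

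BMI1 belongs to Polycomb repressive complex 1, an assembly that places ubiquitin on histone H2A and keeps developmental and cell cycle inhibitor genes silent. Genes under direct repression by the complex are known to gain expression when it is lost. A short hairpin RNA is processed into a small RNA that can also lower transcripts with partial matches to its seed, the bases that start target pairing. The question put to the 10 genes was whether each difference followed the depth of BMI1 loss or was alike in all library pairs.

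Library totals ran from 4962745 to 9640349 counts in knockdown and from 5496683 to 6870122 in control. Same-numbered libraries varied together within their groups and are treated as pairs. Knockdown library 2 stood apart: its score on the leading principal component, with 49.2% of the variance, was 40.2, while knockdown libraries 1 and 3 scored -12.4 and 11.5 and the control libraries -25.5 to -4.07. The score of knockdown library 1 thus lay within the control range. All 12 neural stem cell markers looked up, among them SOX2 and NES, had enough reads to be tested, and their summed level was 3262 to 4410 CPM in knockdown and 3808 to 4087 CPM in control (CPM, counts scaled to a common library total). Of 6 pluripotency genes NANOG, TDGF1 and ZFP42 had 0 counts in every library, while LIN28A, DPPA4 and POU5F1 were expressed, and the list summed to 482 to 600.3 CPM in knockdown and 408 to 561 CPM in control. Of 10 neuronal genes RBFOX3 and ELAVL4 had 0 counts, while others such as MAP2 and TUBB3 were expressed, and the list summed to 706 to 920.4 CPM in knockdown and 828 to 939 CPM in control. Markers of cell division were lower with the group: 24 of 25 fell at an adjusted p under 0.05 in edgeR with the library number as a block, against 5.39% of all tested genes, and 0 without the block. Their summed level was 2692 to 5247 CPM in knockdown and 5231 to 6088 CPM in control. Markers of other cell types also moved with the group in the blocked edgeR fit: 3 of 6 astroglial, 2 of 8 mesenchymal and 2 of 5 endothelial markers rose, and 2 of 6 neuronal markers fell, with 0 calls in any of these lists without the block. Of all tested genes 4.63% rose and 5.39% fell in the blocked fit. In DESeq2 with the block 0 astroglial and 0 endothelial markers passed, and without pair 3 edgeR called 0 mesenchymal and 0 endothelial markers higher. None of 12 neural stem cell, 4 oligodendrocyte and 3 pluripotency markers tested passed in edgeR with or without the block. The part of these markers in the values of the 10 genes was not tested. In bulk RNA, fewer cells of a type and less RNA per cell cannot be told apart.

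BMI1 itself had 39.9, 21.5 and 26.2 CPM in knockdown libraries 1, 2 and 3, against 85.1, 90.0 and 87.4 CPM in control libraries 1, 2 and 3. The loss was thus shallowest in pair 1, where 46.9% of the control level was left, while 23.9% was left in pair 2 and 30.0% in pair 3. On the log2 scale the differences (knockdown minus control) were -1.09, -2.05 and -1.73. The 95% counting intervals, exact for the pair's 2 counts and covering counting error only, were -1.34 to -0.85, -2.33 to -1.81 and -1.96 to -1.52. The interval of pair 1 did not meet those of pairs 2 and 3, which overlapped each other. The shallower loss in pair 1 thus exceeds counting error, and the difference between pairs 2 and 3 does not. Libraries of the same group differed by more than counting error. Whether the losses differ beyond that spread was not tested. COMMD3, the upstream neighbour, had 31.6, 33.4 and 32.5 CPM in knockdown against 23.9, 27.5 and 27.4 CPM in control.

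In all 10 genes the 3 knockdown libraries lay below the 3 control libraries, and all 10 were lower within each same-numbered pair. Over all tested genes, 11.2% had every knockdown library below every control library, and 26.7% were lower in all 3 pairs. The selection fixes these counts for the 10 genes, and nothing is read from them. Ranked by p in the blocked fit among 6582 genes with a lower estimate, BMI1 left out, the 10 took places 1 to 7, 11, 13 and 14. Ranked by the smallest of their 3 pair differences, B3GALNT1 was second after BMI1 and NAT8L 159th of 12937, so the 10 are not the deepest of the lower genes.

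**Figure D1:**
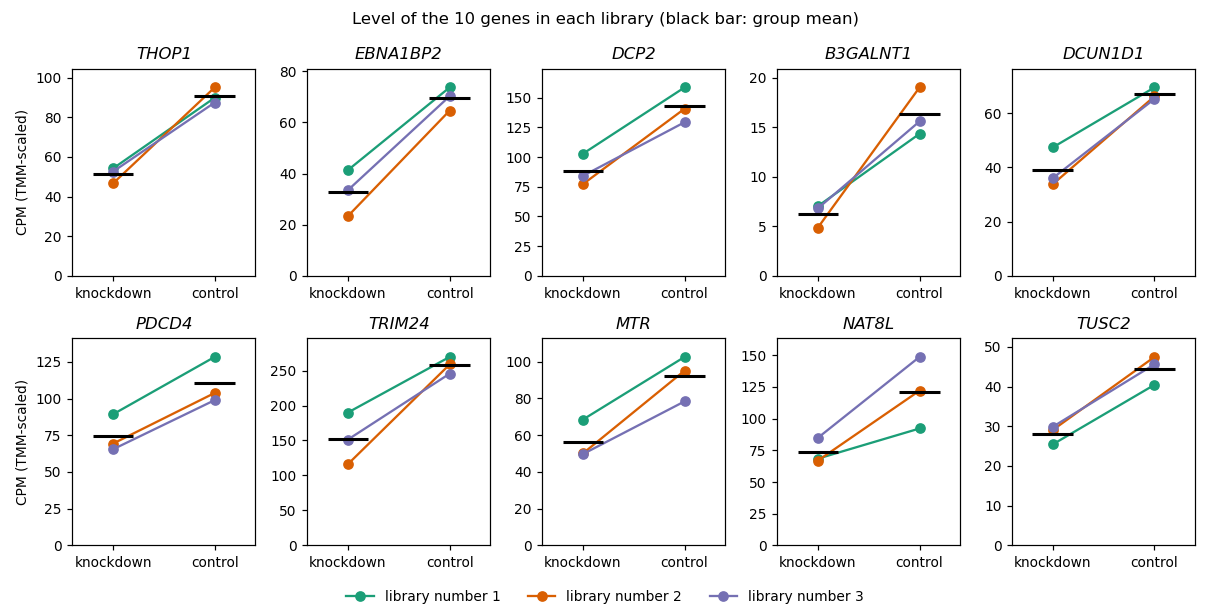
Level of each gene in CPM (vertical axis, starting at 0) in knockdown (left) and control (right); lines join libraries with the same number and black bars are group means of 3 libraries. In every gene all knockdown points lie below all control points, and for NAT8L and PDCD4 the order of the library numbers is largely kept in both groups.

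Among the genes of RNA handling, PDCD4 and DCP2 showed the most even differences. PDCD4 encodes an inhibitor of translation that binds the helicase eIF4A. Its level was 89.3, 69.3 and 65.5 CPM in knockdown libraries 1, 2 and 3, against 128, 104 and 99.0 CPM in control libraries 1, 2 and 3. Library 1 was the highest in both groups, and the highest knockdown value was 9.74% below the lowest control value. Within pairs 1, 2 and 3, 69.5%, 66.8% and 66.2% of the control level remained, with log2 differences of -0.52, -0.58 and -0.59. The range over the pairs was 0.07 log2 units, while BMI1 ranged over 0.96.

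DCP2 encodes the catalytic subunit of the enzyme that removes the cap of messenger RNA. It had 103, 77.2 and 84.1 CPM in knockdown against 159, 141 and 129 CPM in control. The pair differences were -0.62, -0.86 and -0.62, so pairs 1 and 3 matched while BMI1 differed between them. EBNA1BP2 encodes a nucleolar protein whose yeast counterpart is needed to build the large ribosomal subunit. It had 41.4, 23.4 and 33.5 CPM in knockdown against 73.7, 64.6 and 70.3 CPM in control, with differences of -0.83, -1.45 and -1.06. Knockdown library 2 was the lowest of the 6, and the interval of pair 2 (-1.73 to -1.21) did not meet that of pair 1 (-1.09 to -0.58).

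Among the enzymes of metabolism, NAT8L, MTR and B3GALNT1 differed in how much they varied with the library number. NAT8L encodes the enzyme that makes N-acetylaspartate, an abundant metabolite of neurons. It had 68.4, 66.9 and 84.9 CPM in knockdown and 92.2, 122 and 149 CPM in control. Control library 1 was close to knockdown library 3, with the highest knockdown value 8.0% below the lowest control value, the smallest such gap among the 10. The pair differences were -0.43, -0.87 and -0.81, shallow in pair 1 as for BMI1.

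MTR encodes methionine synthase, which joins the folate and methionine cycles. Its level was 68.4, 50.01 and 49.7 CPM in knockdown and 103, 95.1 and 78.3 CPM in control, with differences of -0.58, -0.92 and -0.65. B3GALNT1, which encodes the glycosyltransferase that makes the glycolipid globoside, was the least expressed and had the largest difference. It had 7.03, 4.87 and 6.81 CPM in knockdown and 14.3, 19.0 and 15.6 CPM in control. Its differences were -0.998, -1.90 and -1.16, but with 34 to 65 counts per knockdown library the intervals were wide (-1.65 to -0.43 in pair 1 and -2.54 to -1.42 in pair 2).

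THOP1 and DCUN1D1 act in protein turnover. THOP1 encodes thimet oligopeptidase, a zinc enzyme that cuts short peptides. It had 54.2, 46.6 and 52.6 CPM in knockdown and 89.9, 95.1 and 87.4 CPM in control, with a small spread in both groups. Its differences were -0.73, -1.02 and -0.73, equal in pairs 1 and 3. DCUN1D1 encodes a cofactor that helps attach NEDD8 to cullins. It had 47.4, 33.8 and 36.0 CPM in knockdown and 69.5, 66.2 and 65.2 CPM in control, with differences of -0.55, -0.96 and -0.85 in the order of the BMI1 loss.

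TUSC2 was even over the pairs, and TRIM24 was not. TUSC2 encodes a small mitochondrial protein from a tumour suppressor region of chromosome 3. It had 25.4, 29.1 and 29.9 CPM in knockdown and 40.4, 47.5 and 45.6 CPM in control, and kept 62.9%, 61.2% and 65.5% of the control level in pairs 1, 2 and 3. TRIM24 encodes a ubiquitin ligase of p53 and a partner of nuclear receptors, and had the most counts of the 10. It had 190.0, 116 and 151 CPM in knockdown and 270, 259 and 246 CPM in control. Its differences of -0.50, -1.15 and -0.70 had intervals that did not meet between pair 2 (-1.27 to -1.03) and either of the others (-0.62 to -0.38 and -0.80 to -0.60).

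**Figure D2:**
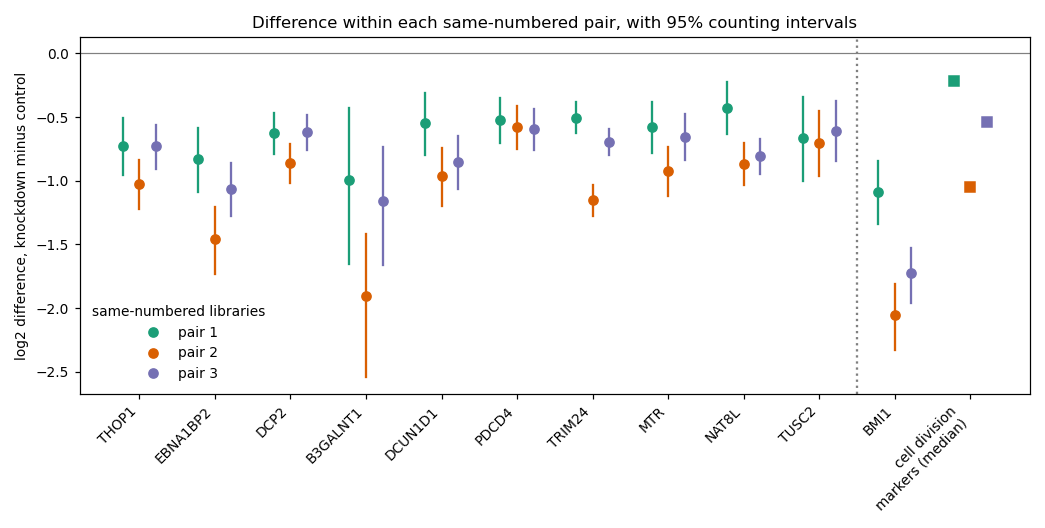
Log2 difference, knockdown minus control, within each same-numbered pair (colours) for the 10 genes and BMI1, with 95% counting intervals as bars; squares are the medians of 25 cell division markers. PDCD4 and TUSC2 sit at one level in all pairs, while TRIM24, EBNA1BP2 and B3GALNT1 are lowest in pair 2, as BMI1 and the cell division markers are.

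For each gene the 3 pair differences were set against an equal difference in every pair and against a difference proportional to that of BMI1, each with 1 free value. The distance given is the root of the summed squared deviations in log2 units. TUSC2 lay at 0.0684 from an equal difference and 0.266 from a proportional one, and PDCD4 at 0.0538 and 0.191. DCUN1D1 lay at 0.302 from an equal difference and 0.0403 from a proportional one, with a slope of 0.48 of the BMI1 difference, and NAT8L at 0.335 and 0.0759 with a slope of 0.43. EBNA1BP2 (0.448 and 0.157), TRIM24 (0.471 and 0.212), B3GALNT1 (0.683 and 0.353) and MTR (0.254 and 0.149) were also closer to a proportional difference. THOP1 (0.240 and 0.227) and DCP2 (0.198 and 0.200) lay about as far from either. THOP1 became closer to an equal difference when libraries were scaled to total counts. Several of these placings lay within counting error. In THOP1, B3GALNT1, DCUN1D1 and MTR the counting intervals of the 3 pairs shared a common value, as an equal difference requires. In PDCD4 and TUSC2 the proportional difference also lay within the interval of every pair.

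**Figure D3:**
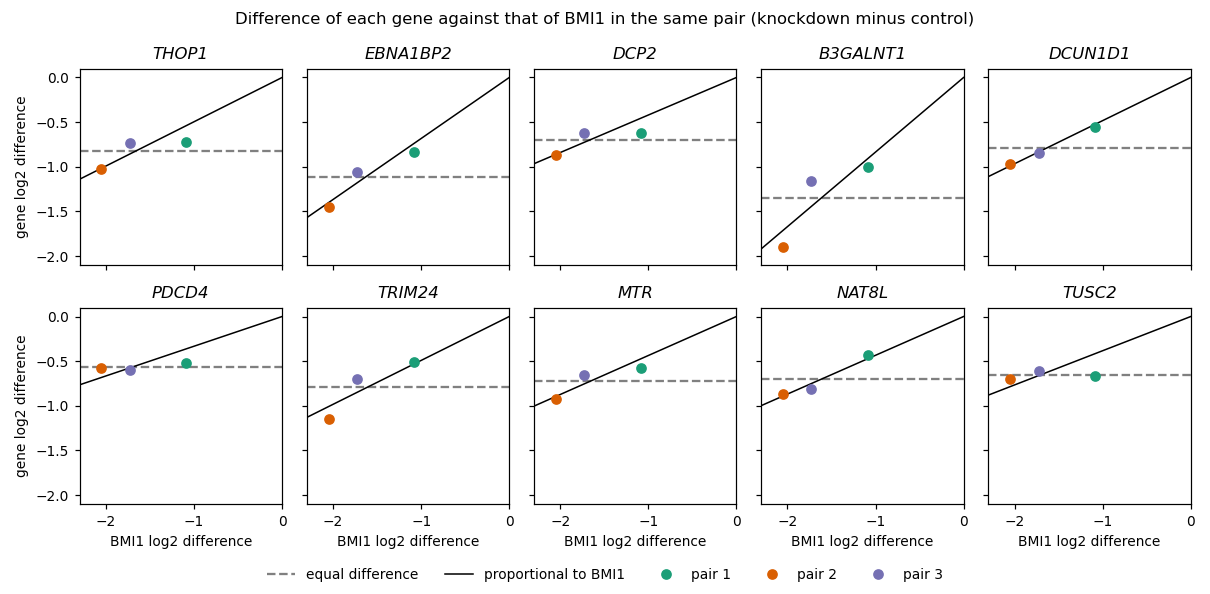
Log2 difference of each gene (vertical axis) against that of BMI1 in the same pair (horizontal axis), both knockdown minus control; the dashed line is an equal difference and the solid line a difference proportional to BMI1. The points of DCUN1D1 and NAT8L lie closer to the solid line, and those of PDCD4 and TUSC2 to the dashed one. Counting intervals are not drawn here.

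In all, 3 of the 10 genes were closer to an equal difference, which is 30% against 31.3% of the 3458 genes lower in all pairs and 12.4% of the 696 genes other than BMI1 that fell in the blocked edgeR fit. The pair order of the BMI1 estimates (2, 3, 1 from deepest to shallowest, with pairs 2 and 3 unresolved) was shared by 7 of the 10, against 45.2% and 76.1% of those gene sets and 25.2% of all tested genes. Near ties placed THOP1 among these 7 (-0.727 in pair 1 and -0.730 in pair 3) and DCP2 among the 3 closer to an equal difference. The intervals of the 3 pairs shared a common value in 7 of the 10, against 43.1% of the 696 genes. A small p in the blocked fit favours genes whose pairs are alike, so these shares follow in part from the selection and are given without a test. With 3 pairs in 2 separate groups no correlation with BMI1 was computed.

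The pair order of BMI1 was also that of other measures. The cell division markers had median differences of -0.22, -1.05 and -0.53 in pairs 1, 2 and 3, and pair 2 holds the library that stood apart. Pair 1 holds the knockdown library that scored within the control range on the leading principal component. The depth of BMI1 loss, the level of cell division genes and the states of knockdown libraries 1 and 2 therefore cannot be told apart over these pairs. Set against a difference proportional to the cell division medians, a comparison added after the values were seen, none of the 10 genes was closest to it. TRIM24 came nearest, at 0.269 against 0.212 for BMI1. The selection favours genes whose pairs are alike, and in proportion the cell division medians are less alike than the BMI1 differences. The outcome thus follows in part from the selection, and nothing is read from it. Without knockdown library 2 the log2 differences of the 10 genes ran from -1.24 (B3GALNT1) to -0.53 (PDCD4), where with all libraries they ran from -1.39 to -0.57. Off-target pairing of the hairpin was not tested, since its sequence was not used here.

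The variation of each gene over the 6 libraries was split into shares of group, library number and remainder. The shares sum to the whole and the group share was high by selection, so they describe how the 10 genes vary among themselves. The library number accounted for 28.4% of the sum of squares of log2 CPM in PDCD4, 24.3% in NAT8L and 18.7% in MTR, but 0.432% in THOP1 and 0.271% in B3GALNT1. The remainder, explained by neither group nor number, was 0.215% in PDCD4 and 0.331% in TUSC2, and highest in TRIM24 (9.38%) and B3GALNT1 (7.80%).

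**Figure D4:**
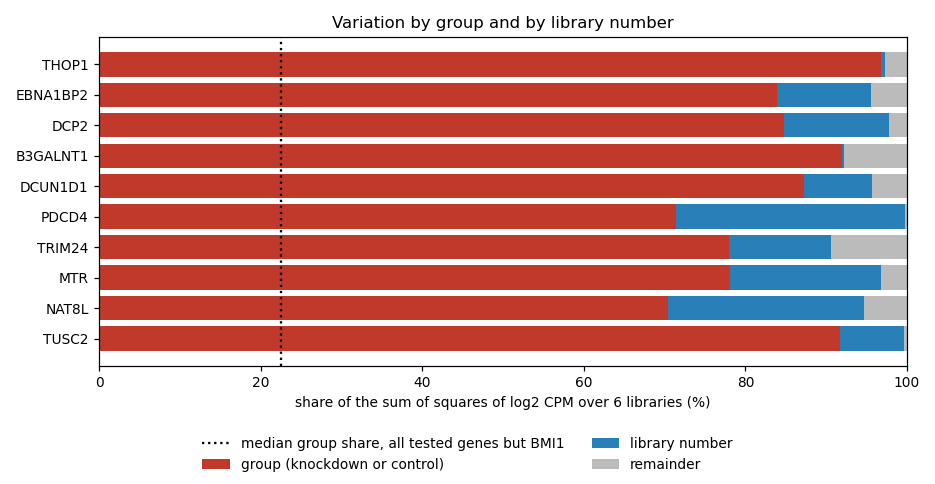
Share of the sum of squares of log2 CPM over 6 libraries (horizontal axis, %) by group, library number and remainder for each gene; the dotted line marks the median group share of all tested genes but BMI1 (22.5%). The group share was used to select the genes; the blue share of the library number is widest in PDCD4 and NAT8L.

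Levels between genes were compared per kilobase of merged exons (GENCODE 29), which can exceed the length of any single transcript. On this scale of CPM per kilobase, TRIM24 averaged 16.5 ± 4.0 in knockdown and 27.97 ± 1.30 in control (SD, n = 3 each), and PDCD4 16.4 ± 2.82 in knockdown and 24.3 ± 3.47 in control. NAT8L averaged 12.5 ± 1.70 and 20.6 ± 4.81, TUSC2 11.7 ± 0.980 and 18.5 ± 1.51, and EBNA1BP2 9.20 ± 2.53 and 19.5 ± 1.29, in knockdown and control. In control these 3 genes did not differ beyond their spread. DCP2 (14.4 ± 1.48) and THOP1 (12.2 ± 0.522) followed in control, then MTR (8.09 ± 1.09) and DCUN1D1 (7.96 ± 0.265), which did not differ beyond their spread, and B3GALNT1 was lowest, at 1.49 ± 0.285 in knockdown and 3.90 ± 0.579 in control. BMI1 was at 6.82 ± 2.23 in knockdown and 20.4 ± 0.570 in control.

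The 10 protein-coding genes lie apart in the genome (GRCh38, GENCODE 29, whole gene with exons and introns). EBNA1BP2 spans chr1:43164175-43270936 and MTR chr1:236795281-236903981. TUSC2 (chr3:50320027-50328251), B3GALNT1 (chr3:161083883-161105384) and DCUN1D1 (chr3:182938074-182985953) share a chromosome. NAT8L lies at chr4:2059512-2069089, DCP2 at chr5:112976702-113020970 and TRIM24 at chr7:138460334-138589993. PDCD4 lies at chr10:110871795-110900006, on the chromosome of BMI1, and THOP1 at chr19:2785460-2815807. Several share bases with a neighbour. The library kit keeps the strand, but the strand setting of the counting is not stated, so reads from shared bases cannot be assigned with certainty. PDCD4 shares 1277 exon bases with BBIP1 on the opposite strand, which had 31.5 ± 1.11 CPM in knockdown and 29.01 ± 4.26 CPM in control (edgeR adjusted p 0.712, and 0.517 with the block). TUSC2 shares 509 bases with HYAL2 on the same strand, at 126 ± 13.1 and 111 ± 3.95 CPM in knockdown and control (edgeR adjusted p 0.422, and 0.124 with the block). B3GALNT1 shares 101 bases with NMD3, at 78.0 ± 8.02 CPM in knockdown and 79.1 ± 5.14 CPM in control (edgeR adjusted p 0.941, and 0.848 with the block). CFAP57, opposite to EBNA1BP2, had at most 6 counts in a library, the microRNA genes MIR6733 in EBNA1BP2 and MIR4680 in PDCD4 had 0, and the antisense gene PDCD4-AS1 was at 6.97 ± 1.01 CPM in knockdown and 6.44 ± 0.892 CPM in control (edgeR adjusted p 0.840, and 0.753 with the block). None of the overlapping genes that were tested passed in either fit.

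Promoter windows of RefSeq (GRCh38.p14, 300 bases, of which 250 lie before the start) were found for 9 of the 10 genes, in 14 windows. They are shown for PDCD4, TUSC2 and DCP2, the genes closest to an equal difference, and for NAT8L. NAT8L lay closer to a difference proportional to that of BMI1. DCUN1D1 lay closer still to a proportional difference and is not shown. Each sequence shown is the 250 bases before the start, read along the gene. The CCAAT box (CCAAT or its complement ATTGG) and the ETS site (CGGAAG or CTTCCG) are in capitals.
PDCD4 promoter, chr10:110871678-110871927, plus strand: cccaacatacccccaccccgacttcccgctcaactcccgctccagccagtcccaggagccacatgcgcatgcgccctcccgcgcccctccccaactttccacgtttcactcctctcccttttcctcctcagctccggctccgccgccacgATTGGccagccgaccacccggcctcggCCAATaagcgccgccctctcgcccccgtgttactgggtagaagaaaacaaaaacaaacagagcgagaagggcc
TUSC2 promoter, chr3:50328224-50328473, minus strand: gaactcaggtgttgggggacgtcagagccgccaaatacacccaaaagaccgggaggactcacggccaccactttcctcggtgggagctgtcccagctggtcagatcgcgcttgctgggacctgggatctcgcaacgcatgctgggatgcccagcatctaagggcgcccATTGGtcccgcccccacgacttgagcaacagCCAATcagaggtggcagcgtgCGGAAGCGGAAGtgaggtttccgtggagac
DCP2 promoter, chr5:112976548-112976797, plus strand: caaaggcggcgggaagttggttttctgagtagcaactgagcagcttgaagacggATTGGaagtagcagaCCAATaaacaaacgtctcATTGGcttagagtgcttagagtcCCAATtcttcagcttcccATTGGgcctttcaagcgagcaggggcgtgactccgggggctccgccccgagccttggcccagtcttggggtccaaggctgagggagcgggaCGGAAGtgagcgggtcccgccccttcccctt
NAT8L promoter, chr4:2059077-2059326, plus strand: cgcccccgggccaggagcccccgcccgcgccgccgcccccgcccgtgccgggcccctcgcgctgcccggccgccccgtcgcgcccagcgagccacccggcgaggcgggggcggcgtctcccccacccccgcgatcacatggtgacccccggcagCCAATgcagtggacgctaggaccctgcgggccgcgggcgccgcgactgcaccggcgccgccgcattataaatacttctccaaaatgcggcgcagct

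All 4 windows hold at least 1 CCAAT box, a common promoter element bound by the factor NFY. The DCP2 stretch has 5, those of PDCD4 and TUSC2 have 2 each, and NAT8L has 1. Counted on both strands over all windows, CCAAT was found in 10 of the 14 windows (71.4%) and in at least 1 window of each of the 9 genes, against 34.6% of 35114 windows and 43.9% of 9740 tested genes with a window. CGGAAG was in 50% of the 14 windows against 19.5% of all windows, and in 5 of the 9 genes against 38.7% of tested genes. TTTGAA (the CHR element of mitotic genes) was in 7.14% of the windows against 15.2%, and in 1 of the 9 genes against 14% of tested genes. The E2F-type sequence GCGGGAA was in 35.7% of the windows against 6.55%, and in 4 of the 9 genes against 12.9% of tested genes. GGGCGG, the GC box, was in 78.6% of the windows against 45%, and in all 9 genes against 77.1% of tested genes. The E-box CACGTG was in 14.3% of the windows against 7.26%, and in 1 of the 9 genes against 12.5% of tested genes. GCATGCGC, the core bound by NRF1, was in 7.14% of the windows against 3.05%, and in 1 of the 9 genes against 6.58% of tested genes. Genes with several start sites have several, partly overlapping windows, and a match is a description of the letters, not of a bound site.

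To see whether the partners of each gene changed with it, 10 lists of genes with related roles were read from the same fits. The edgeR test with group only called 0 of 123 partner genes, with 17 at an unadjusted p under 0.05, and DESeq2 with group only called 2. With the library number as a block, edgeR called 12 (9.76%), of which 11 fell and 1 rose, where over all genes 5.39% fell and 4.63% rose. The median log2 difference of the partners was -0.04 in the blocked fit, against -0.0045 for all tested genes.

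**Figure D5:**
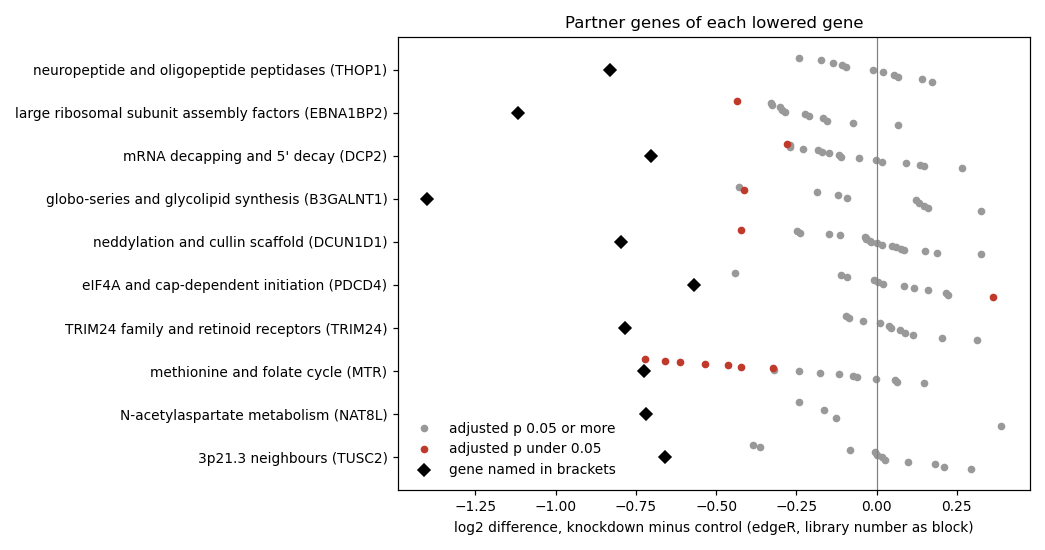
Log2 difference, knockdown minus control, from edgeR with the library number as a block (horizontal axis) for the partner genes of each lowered gene; red points have an adjusted p under 0.05, grey points do not, and diamonds mark the gene in brackets. The list of the methionine and folate cycle holds 7 of the 11 partners that fell, and most of the large ribosomal subunit assembly factors also lie below 0, with 1 called.

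The partners of MTR made up most of the calls. In the methionine and folate cycle 7 of 17 tested genes fell in edgeR with the block and none rose. The number was 6 without pair 1, 7 without pair 2 and 6 without pair 3, and 5 in DESeq2 with the block. MAT2B, a regulatory subunit of the enzyme that makes S-adenosylmethionine, had 71.0 ± 16.7 CPM in knockdown and 106 ± 3.53 CPM in control (log2 difference -0.61, SE 0.101, edgeR adjusted p 0.0230 with the block and 0.258 without). SHMT1, a serine hydroxymethyltransferase, had 23.7 ± 5.23 CPM in knockdown and 36.8 ± 0.891 CPM in control (-0.66, edgeR adjusted p 0.0266 with the block and 0.258 without). MTRR, the reductase that reactivates methionine synthase, did not pass, with 38.4 ± 3.16 CPM in knockdown and 38.2 ± 0.899 CPM in control (edgeR adjusted p 0.991). The median of the list was -0.13, -0.44 and -0.21 in pairs 1, 2 and 3, in the order of the cell division markers, whose part in this list was not tested.

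The other lists held few calls. Of 12 assembly factors of the large ribosomal subunit, RRP1B fell (-0.44, edgeR adjusted p 0.0331 with the block), and the list had a median of -0.25. Of 16 genes of decapping and 5′ decay, the nudix hydrolase gene NUDT16 fell (-0.28, edgeR adjusted p 0.0499 with the block), a call that was lost with RLE factors, in DESeq2 with the block, and without pair 1 or pair 3. The decapping activator DCP1A did not pass, with 97.5 ± 4.64 CPM in knockdown and 81.8 ± 11.1 CPM in control (edgeR adjusted p 0.108 with the block). Of 10 glycolipid synthesis genes the galactosyltransferase gene B4GALT6 fell (-0.41, edgeR adjusted p 0.0395 with the block), a call that was lost in DESeq2 with the block and without pair 1. Of 19 genes of neddylation the cullin CUL4A fell (-0.42, edgeR adjusted p 0.0327 with the block).

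EIF4A2, a helicase of the eIF4A family that PDCD4 binds, was the partner that rose. It had 387 ± 26.7 CPM in knockdown and 300.2 ± 5.67 CPM in control (log2 difference 0.36, SE 0.069, edgeR adjusted p 0.0256 with the block and 0.258 without), and was higher in all 3 pairs (0.33, 0.50 and 0.26). It was the one call among 12 genes of cap-dependent initiation. None of 11 peptidases near THOP1 in function, 11 genes of the TRIM24 family and retinoid receptors, 4 genes of N-acetylaspartate metabolism or 11 neighbours of TUSC2 on chromosome 3 passed with the block. TRIM33, a close relative of TRIM24, had 137 ± 7.54 CPM in knockdown and 141 ± 6.70 CPM in control (edgeR adjusted p 0.712 with the block).

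Genes outside the 10 with profiles like theirs were found for each. By Pearson's r of log2 CPM over the 6 libraries, the nearest gene to TRIM24 was CDCA5, a regulator of sister chromatid cohesion (0.998), and 445 genes lay above 0.95. For NAT8L it was ATRIP, a partner of the checkpoint kinase ATR (0.995), with 40 genes above 0.95. The nearest were PDF for THOP1, MTFR2 for EBNA1BP2, TBCD for DCP2, FKBP9 for B3GALNT1, OPN3 for DCUN1D1, PPP1R3B for PDCD4, SIPA1L3 for MTR and MICAL3 for TUSC2, at r from 0.993 to 0.999. With 6 libraries in 2 groups such values are common and are a description only.

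Besides BMI1, the 5 genes outside the 10 with the largest smallest pair difference were OAS3, APITD1, HTATIP2, MYOZ3 and C1orf216. OAS3, an interferon-induced synthetase, had pair differences of -0.98, -1.14 and -1.10, but only 47 counts in the knockdown and 93 in the control libraries together. C1orf216 had -0.82, -1.16 and -0.91, with 132 counts in knockdown and 233 in control. HTATIP2 (-1.43, -0.89 and -0.98) and MYOZ3 (-1.37, -0.84 and -1.004) were lowest in pair 1, where BMI1 loss was shallowest, and APITD1 was at -0.96, -1.51 and -1.06. These 5 had 88 to 365 counts over all libraries, against 444 to 8067 for the 10 genes.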

How the data were processed

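The authors deposited raw read counts for 26485 gene symbols, 1 file a library, whole numbers judged to be unscaled from their differing sums. Per the submitters' processing notes, Trim Galore 0.6.6, STAR 2.7.10a, bedtools and hg38 were used. Which program counted the reads, with which annotation and strand, is not given in the sources used here. Within each group, all libraries differed by more than sampling noise (chi-square per gene at least 3.19).

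The main test was edgeR 4.0.16 (R 4.3.3) with filterByExpr defaults, TMM factors and the quasi-likelihood test with group as the only term, adjusted by Benjamini-Hochberg over 12937 genes at 0.05. Log2 CPM values used a prior count of 2. Counting intervals are exact binomial (Clopper-Pearson) at 95%. They cover counting error only, since reads without molecular identifiers are not independent molecules. Deviations of same-numbered libraries correlated at 0.563, 0.467 and 0.535 across genes, each above 0.1, and the libraries were therefore paired by number. This pairing is read from the data, not the labels, and the fit with the number as a block is given beside the other.

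The 10 genes, the gene lists and the comparisons were chosen with earlier results of these data known. Named genes were the 10 with BMI1 and COMMD3, overlapping genes, up to 3 called genes per partner list, the nearest profile per gene, and the 5 other genes whose smallest pair difference was largest. Partner genes named without a call were chosen after their values were seen. Of the called partners, 1 called partner gene is not reported here. Alternatives were RLE factors, total counts, no filter, DESeq2 1.42.0, other prior counts, and leaving out each library or pair. The edgeR fits were run on simulated data. The simulation took its library number effect and its dispersions from these data, so it is no check of the calls in the blocked fit.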

Additional observations from a re-analysis of the deposited data

How the results depend on the processing

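The count of called genes depended on the library number as a term. EdgeR with group only called 0 of 12937 genes, with 1869 at an unadjusted p under 0.05. It also called 0 with RLE factors and with total counts, 2 with no filter, and 0 to 665 when 1 library was left out, the 665 without knockdown library 1. The replicate block gave 1296 calls, 1335 with RLE factors, 1283 with total counts and 2171 with no filter, the last 3 added after seeing the data. Leaving out 1 pair gave 1320 without pair 1, 2296 without pair 2 and 912 without pair 3. DESeq2 called 142 with group only and 590 with the block. For the 123 partner genes the group-only count of 0 became 12 with the replicate block, 11 with RLE factors, 14 with total counts and 21 with no filter in that fit. It was 2 and 8 in DESeq2 without and with the block, 6 without knockdown library 1, and 12 to 21 with 1 pair left out (21 without pair 2). Some of these settings also differ in the number of samples or genes tested, and the cause of the change in calls was not tested.

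The median log2 difference of the 10 genes was -0.74, and -0.87 to -0.65 over all alternatives. No gene changed sign in 180 gene-by-setting values, which follows largely from the selection. With 1 library left out in the group-only fit, PDCD4 ran from -0.71 to -0.44 and TUSC2 from -0.72 to -0.59. Of the 10 genes 3 (4 with total counts) were closer to an equal difference, and 7 (6 with RLE factors or no filter) had the pair order of BMI1. Depth limits B3GALNT1 most, at 34 to 123 counts per library. Each gene has 3 pairs, and the values beside BMI1 that vary over them were not separated.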
